A study of Homo sapiens with 6 samples.

Results

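A set of 9 genes of the plasminogen activation system and of the serpin family was followed in PC3 cells after silencing of Mic60, the inner-membrane protein of mitochondria that the IMMT gene encodes. The genes were taken by name: the plasminogen activators PLAU and PLAT, the urokinase receptor PLAUR, and the serpins SERPINE2, SERPINB2, SERPINB5, SERPINB6, SERPINB8 and SERPINB9. All 9 were found among the 57736 Ensembl genes of the deposited table. PC3 is a human prostate cancer line derived from a bone metastasis, and all libraries came from it. In one field the labels name an siRNA against Mic60 (siMic60, n = 3) and a control siRNA (siCTRL, n = 3), and in another they call the same groups Mic60 KO and Mic60 WT. The siRNA names are used here. The labels give neither the siRNA sequences nor the time after transfection.

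Plasminogen is a circulating zymogen that urokinase (PLAU) and tissue plasminogen activator (PLAT) cleave to plasmin, a serine protease that dissolves fibrin and degrades matrix proteins. The receptor PLAUR holds urokinase at the cell surface and so confines plasmin formation to the cell's surroundings, which is why the system has been studied in tumor cell invasion. Serpins inhibit serine proteases by offering a loop as bait and trapping the enzyme in a covalent complex. SERPINE2 and SERPINB2 inhibit plasminogen activators, whereas most clade B serpins lack a classical signal peptide and act mainly inside cells.

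The libraries were made with a kit that reads the 3' end of polyadenylated transcripts, and total counts were 6644495 to 8779877 in siMic60 and 7714837 to 8396244 in siCTRL libraries. Levels are given in CPM, counts scaled to a common library size after TMM normalization. A gene was called higher or lower where the Benjamini-Hochberg adjusted p of edgeR's quasi-likelihood test was under 0.05 over the 14653 genes tested. IMMT was at 7.22 ± 1.35 CPM in siMic60 cells, and the siCTRL mean was 89.9 ± 1.13 CPM (SD, n = 3 each), so that 8.12% of the control level was left (adjusted p = 4.38e-10, edgeR). A list of 6 epithelial and PC3 markers summed to 1814 to 2027 CPM in siMic60 and to 2094 to 2432 CPM in siCTRL libraries, but its genes differed in direction: KRT8 and VIM were called higher, KRT18, KRT19 and EPCAM lower, and CDH1 was not called. The prostate luminal list summed to 40.4 to 49.7 CPM in siMic60 and to 12.04 to 15.0 CPM in siCTRL libraries, with KLK3 at no count in any. The fibroblast list, most of whose counts were of COL1A1, summed to 47.4 to 68.5 CPM in siMic60 and to 278 to 372 CPM in siCTRL libraries, and DCN had no count. The part of these shifts in the results below was not tested. A list of 10 leukocyte markers summed to 0.920 to 3.05 CPM in siMic60 and to 1.32 to 2.25 CPM in siCTRL libraries, and 5 of them had no count in any library. In bulk RNA, fewer cells expressing a gene and less RNA per cell cannot be told apart. The chi-square of counts between 2 libraries of a group was 3.54 to 13.5 per degree of freedom over the genes tested, above the 1 that repeated sequencing of a single library gives. The study states in general terms that its replicates are independent, but not how these were cultured, and the p-values therefore reflect only how far these libraries differ, which may in part be technical variation.

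The promoter windows of 3 members are shown because these genes gave the fall (PLAU), the largest rise (SERPINB2) and no call (PLAUR). Each window runs from 250 bases before to 50 bases after an annotated start in RefSeq (GRCh38.p14) and is written 5' to 3' on the gene's strand. PLAU has 2 annotated starts, and the window of the downstream one is shown (chr10:73910882-73911181, plus strand). The SERPINB2 window is chr18:63887455-63887754 (plus strand) and the PLAUR window chr19:43670120-43670419 (minus strand). Capitals mark matches to the AP-1 motif TGANTCA on either strand.
PLAU: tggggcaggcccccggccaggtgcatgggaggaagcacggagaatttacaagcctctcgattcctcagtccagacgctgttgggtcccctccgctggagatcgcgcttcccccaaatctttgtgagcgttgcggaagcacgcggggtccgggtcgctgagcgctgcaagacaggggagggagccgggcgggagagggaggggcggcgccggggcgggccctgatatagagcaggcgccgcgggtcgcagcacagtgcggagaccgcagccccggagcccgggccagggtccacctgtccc
SERPINB2: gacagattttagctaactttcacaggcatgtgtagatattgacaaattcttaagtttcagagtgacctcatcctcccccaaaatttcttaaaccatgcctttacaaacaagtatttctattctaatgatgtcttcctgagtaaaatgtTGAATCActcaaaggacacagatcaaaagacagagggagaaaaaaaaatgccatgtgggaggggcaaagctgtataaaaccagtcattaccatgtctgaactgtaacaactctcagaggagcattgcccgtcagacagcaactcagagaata
PLAUR: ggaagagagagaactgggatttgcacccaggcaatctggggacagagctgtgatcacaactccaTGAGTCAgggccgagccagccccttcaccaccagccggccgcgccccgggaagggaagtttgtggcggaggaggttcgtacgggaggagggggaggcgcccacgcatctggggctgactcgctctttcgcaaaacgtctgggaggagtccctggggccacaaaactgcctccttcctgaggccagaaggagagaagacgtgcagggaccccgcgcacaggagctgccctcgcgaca
RefSeq windows were at hand for 8 of the 9 members, with 13 windows in all. An AP-1 match was present in 4 of the 13 windows, and 7.71% of 35116 windows over all genes hold one. The matches were TGAATCA in SERPINB2 and SERPINB5, TGAGTCA in PLAUR, and both in SERPINB8. Of these 4 genes, only SERPINB2 was called changed, and neither PLAU window held a match. Sequence outside the windows was not searched, so a site farther from a start would be missed in any of these genes. The interferon response element GAAANNGAAA and the NF-kB consensus, searched on both strands, matched no window of these genes, while 3.57% and 11.3% of all windows hold them.

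Silencing of Mic60 divided the plasminogen activators. PLAU transcripts fell, PLAT and SERPINB2 transcripts rose, and PLAUR was not called in either direction. SERPINE2 rose by a smaller margin that did not hold under every alternative. Of the 9 members, all of which had enough counts to be tested, 3 were called higher, 1 was called lower and 5 were not called. Over all genes tested, 17.7% were called higher and 17.8% lower, so the count of members called is not in itself a result about them.

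**Figure D1:**
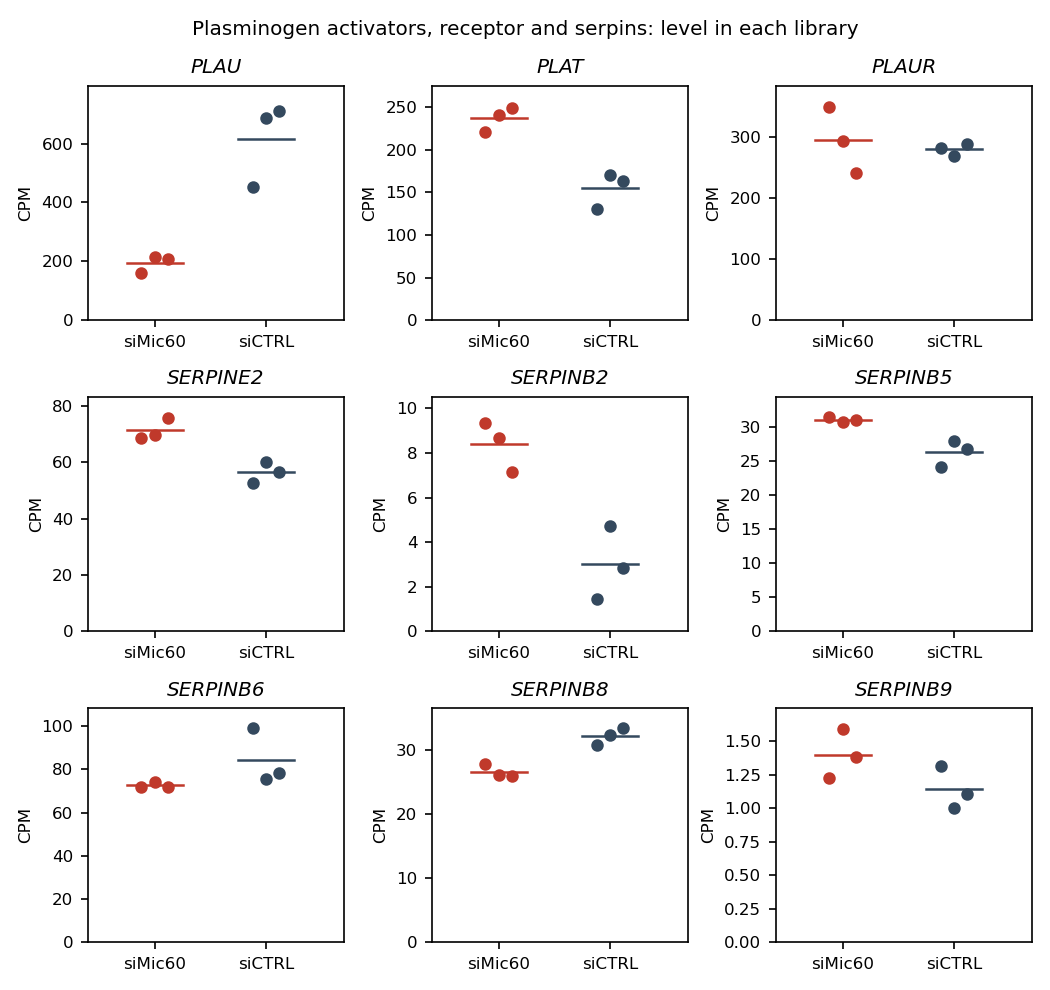
Level of each of the 9 genes in CPM (y axis, linear from 0) in the 3 siMic60 and 3 siCTRL libraries (x axis), with 1 point per library and a line at each group mean. PLAU is lower in every siMic60 library (161 to 214 CPM) than in any siCTRL library (451 to 709 CPM), SERPINB2 and PLAT are higher, and the groups overlap for PLAUR and SERPINB9.

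PLAU (ENSG00000122861), which encodes urokinase, was at 161, 214 and 208 CPM in siMic60 libraries, against 451, 686 and 709 CPM in siCTRL libraries. The groups did not overlap, and the siCTRL library nearest to the silenced cells was replicate 1. The level fell to 31.6% of the control (95% confidence interval 24.8% to 40.4%), a log2 fold change of −1.66 (standard error 0.17, adjusted p = 2.60e-06). Only 332 of the 14653 genes tested had a lower log2 fold change. In GENCODE 29, C10orf55 overlaps PLAU on the opposite strand. It had 26 counts over the siMic60 and 65 over the siCTRL libraries, where PLAU had 4618 and 15044. C10orf55 was itself called lower, with a log2 fold change of −1.25. Because the strand setting of the counting is not given, reads of the pair cannot be told apart.

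PLAT (ENSG00000104368), the second activator, is best known for dissolving clots on fibrin. Its level was 221, 241 and 249 CPM in siMic60 libraries and 131, 171 and 163 CPM in siCTRL libraries. The lowest siMic60 value exceeded the highest siCTRL value, the opposite of PLAU. The rise was 1.53-fold (95% confidence interval 1.27 to 1.84, log2 fold change 0.61, standard error 0.12, adjusted p = 0.00150). As large a change in either direction was found in 29.2% of the genes tested, against 4.25% for the change in PLAU.

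PLAUR (ENSG00000011422), the receptor that binds urokinase, was at 349.8, 294 and 241 CPM in siMic60 libraries and at 282, 269.5 and 288 CPM in siCTRL libraries. The siMic60 libraries lay on both sides of the control values, with a coefficient of variation of 18.5% against 3.43% in siCTRL. The fold was 1.05 and its 95% confidence interval of 0.866 to 1.28 leaves room for a modest change either way (log2 fold change 0.07, standard error 0.13, adjusted p = 0.699). The sign of this value depended on siMic60 replicate 1, without which the log2 fold change was −0.06.

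A ratio of counts within a library does not depend on how libraries are scaled to each other. For each read of PLAUR there were 0.461, 0.728 and 0.864 reads of PLAU in siMic60 libraries, against 1.60, 2.55 and 2.46 in siCTRL libraries. The ratio of PLAU to PLAT was 0.731, 0.888 and 0.838 in siMic60 libraries and 3.45, 4.02 and 4.34 in siCTRL libraries. The ratio of PLAU to SERPINB2 was 17.3, 24.7 and 29.2 in siMic60 libraries and 315, 145 and 251 in siCTRL libraries. All of these ratios were lower in every silenced library, so PLAU fell relative to each of these genes without any scaling. PLAU is the numerator of each ratio, and its fall alone lowers them all. The ratios are therefore no separate evidence of a change in PLAUR, PLAT or SERPINB2. They compare a pair of genes across groups and do not give their relative transcript numbers, since capture may differ between genes. No test was run on them.

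**Figure D2:**
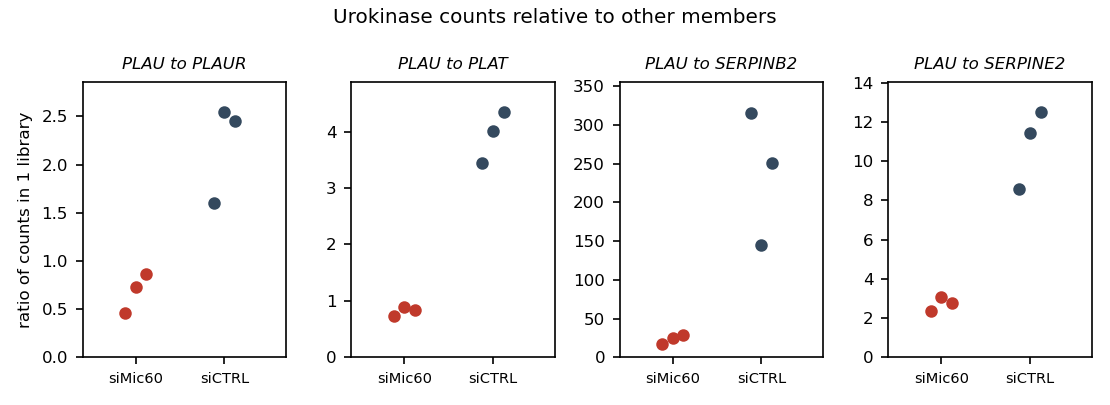
Ratio of PLAU counts to PLAUR, PLAT, SERPINB2 and SERPINE2 counts in the same library (y axes, linear from 0), with 1 point for each of 3 siMic60 and 3 siCTRL libraries. In all 4 panels every siMic60 point lies below every siCTRL point, for example at 0.731 to 0.888 against 3.45 to 4.34 for PLAU to PLAT.

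Among the inhibitors of plasminogen activators, SERPINB2 (ENSG00000197632), also known as plasminogen activator inhibitor type 2, had the larger change. It was at 9.33, 8.67 and 7.13 CPM in siMic60 libraries and at 1.43, 4.74 and 2.83 CPM in siCTRL libraries. The groups did not overlap, although the controls were widely spread, with a coefficient of variation of 55.3%. The rise was 2.78-fold (95% confidence interval 1.68 to 4.63, log2 fold change 1.48, standard error 0.34, adjusted p = 0.00370). It rests on 194 counts over the siMic60 and 73 over the siCTRL libraries. SERPINB2 is abundant in activated monocytes, and the summed leukocyte markers were at most 3.05 CPM in siMic60 and 2.25 CPM in siCTRL libraries. Which cells the SERPINB2 transcripts came from was not tested. SERPINB10, its neighbor, overlaps it on the same strand and had 26 and 15 counts in siMic60 and siCTRL.

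SERPINE2 (ENSG00000135919), or protease nexin-1, inhibits thrombin and urokinase outside cells. Its level was 68.5, 69.7 and 75.8 CPM in siMic60 libraries and 52.6, 60.0 and 56.6 CPM in siCTRL libraries. The groups did not overlap, and the nearest libraries were siMic60 replicate 1 and siCTRL replicate 2. The fold was 1.27 (95% confidence interval 1.06 to 1.51, log2 fold change 0.34, standard error 0.12, adjusted p = 0.0365). The call was lost in 8 of 13 alternatives, with adjusted p between 0.0362 and 0.107 over all of them, among them scaling by library totals and the fits without siMic60 replicate 2, siMic60 replicate 3 or any one of the siCTRL replicates.

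The other 4 clade B serpins were not called. SERPINB5 (ENSG00000206075), or maspin, does not inhibit proteases in the usual way and is known as a suppressor of prostate and breast tumor cell invasion. It was at 31.5, 30.8 and 31.1 CPM in siMic60 libraries and at 24.2, 28.0 and 26.8 CPM in siCTRL libraries, with a fold of 1.18 (95% confidence interval 0.971 to 1.44, adjusted p = 0.175). SERPINB6 (ENSG00000124570), an inhibitor of cathepsin G, was at 71.6, 74.1 and 71.8 CPM in siMic60 libraries and at 98.9, 75.5 and 78.0 CPM in siCTRL libraries, with a fold of 0.862 (0.713 to 1.04, adjusted p = 0.212). The highest siCTRL value was that of replicate 1, without which the log2 fold change was −0.09 in place of −0.22.

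SERPINB8 (ENSG00000166401), an inhibitor of the proprotein convertase furin, was at 27.8, 26.1 and 25.9 CPM in siMic60 libraries and at 30.7, 32.3 and 33.4 CPM in siCTRL libraries. Its fold was 0.827 (95% confidence interval 0.681 to 1.00, adjusted p = 0.119). SERPINB9 (ENSG00000170542), which inhibits granzyme B and protects cells from cytotoxic lymphocytes, was close to the limit of detection. It had 8, 13 and 12 counts in siMic60 libraries and 11, 8 and 9 counts in siCTRL libraries, and its fold of 1.23 had an interval of 0.645 to 2.34 (adjusted p = 0.635). This interval does not exclude a 2-fold rise. Where strand and overlap could matter, AC036176.3 overlaps SERPINB5 on the same strand, with 52 counts in siMic60 and 79 in siCTRL libraries, and HMSD overlaps SERPINB8, with 12 and 18.

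Groups were fully separated for 7 of the 9 members, with siMic60 above siCTRL in 4 and below it in 3. The same separation was found for 47.9% of all genes tested. It included SERPINB5, SERPINB6 and SERPINB8, none of which passed the test.

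**Figure D3:**
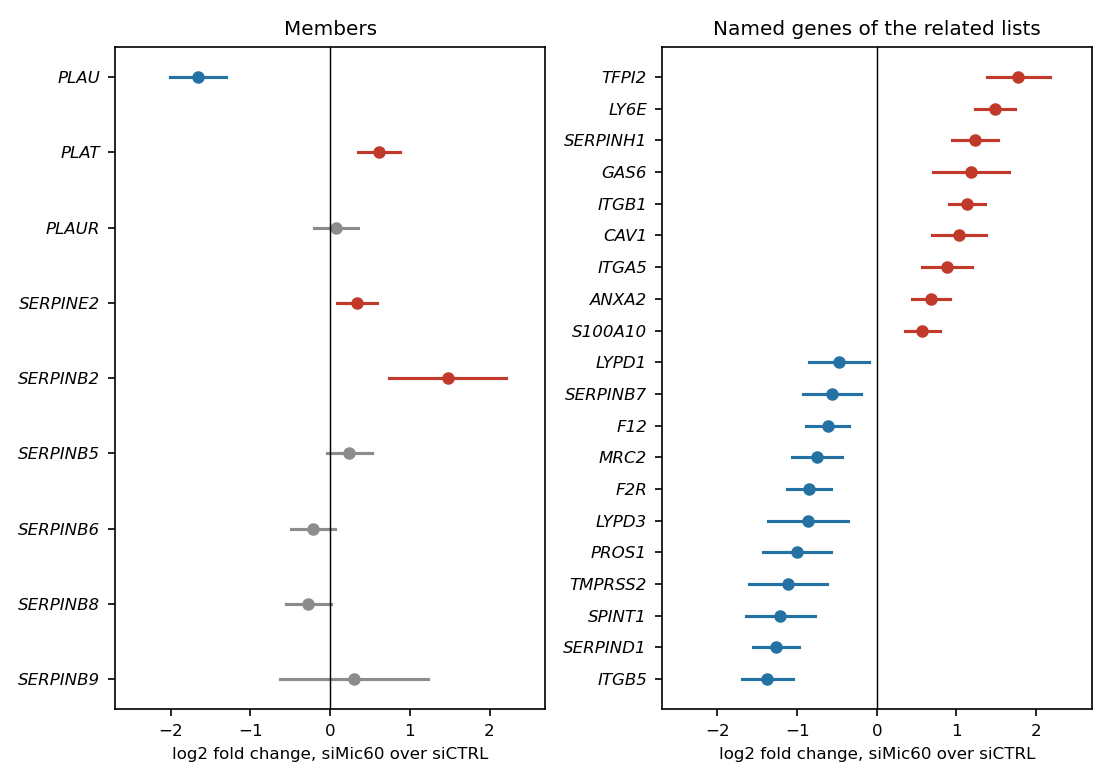
Log2 fold change of siMic60 over siCTRL (x axis; 0 is no change) with its 95% confidence interval, for the 9 members (left) and for the named genes of the related lists (right), from edgeR with n = 3 libraries per group. Red is called higher, blue called lower and grey not called; PLAU stands at −1.66 and SERPINB2 at 1.48, and the intervals of PLAUR and of the 4 uncalled clade B serpins cross 0.

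The clade B serpin genes lie in 2 clusters. In RefSeq, chromosome 18 carries SERPINB5, SERPINB12, SERPINB13, SERPINB4, SERPINB3, SERPINB11, SERPINB7, SERPINB2, SERPINB10 and SERPINB8 in this order, and chromosome 6 carries SERPINB1, SERPINB9 and SERPINB6. Calls differed between neighbors. SERPINB2 rose while SERPINB7, on one side of it, fell to 37.1 ± 2.73 CPM in siMic60, with 54.8 ± 14.0 CPM in siCTRL (SD, n = 3 each; adjusted p = 0.0182), and SERPINB8, on the other side beyond SERPINB10, was not called. The call of SERPINB7 was lost without siMic60 replicate 2 (adjusted p = 0.0780), siCTRL replicate 2 (adjusted p = 0.0646) or siCTRL replicate 3 (adjusted p = 0.0904), and its groups overlapped. SERPINB11, SERPINB12 and SERPINB13 had no count in any library, and SERPINB3 and SERPINB4, which are near-identical copies, had too few to test. On chromosome 6, neither SERPINB1, SERPINB9 nor SERPINB6 was called.

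Around the members, 8 lists of related genes held 96 genes, of which 52 had enough counts to be tested. Of these, 14 were called higher and 14 lower, beside the 17.7% and 17.8% over all genes. For 3 of the 14 higher (SERPING1, CTSS and CASP1) and 1 of the 14 lower (MST1), the group with the lower level would not have reached the count minimum by itself. The lists do not hold every gene of the system. Plasminogen itself (PLG) had 3 counts, all in siCTRL replicate 2, and was not tested. Among its binding proteins and clearance receptors, 2 rose, 3 fell and 4 were not called, with a median log2 fold change of 0.12 against 0.0026 over all genes. ANXA2 and S100A10 form the annexin A2 complex, which binds plasminogen and PLAT at the cell surface. ANXA2 was at 1871 ± 203 CPM in siMic60 and 1168 ± 78.5 CPM in siCTRL cells, a rise of 1.60-fold (adjusted p = 2.40e-04), and S100A10 rose 1.49-fold (SD, n = 3 each; adjusted p = 5.16e-04). MRC2, an endocytic collagen receptor that associates with PLAUR, fell to 59.6% of control, and F12, coagulation factor XII, to 65.3%. LRP1, which takes up activator-inhibitor complexes, fell to 66.6% and is named after its value was seen.

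**Figure D4:**
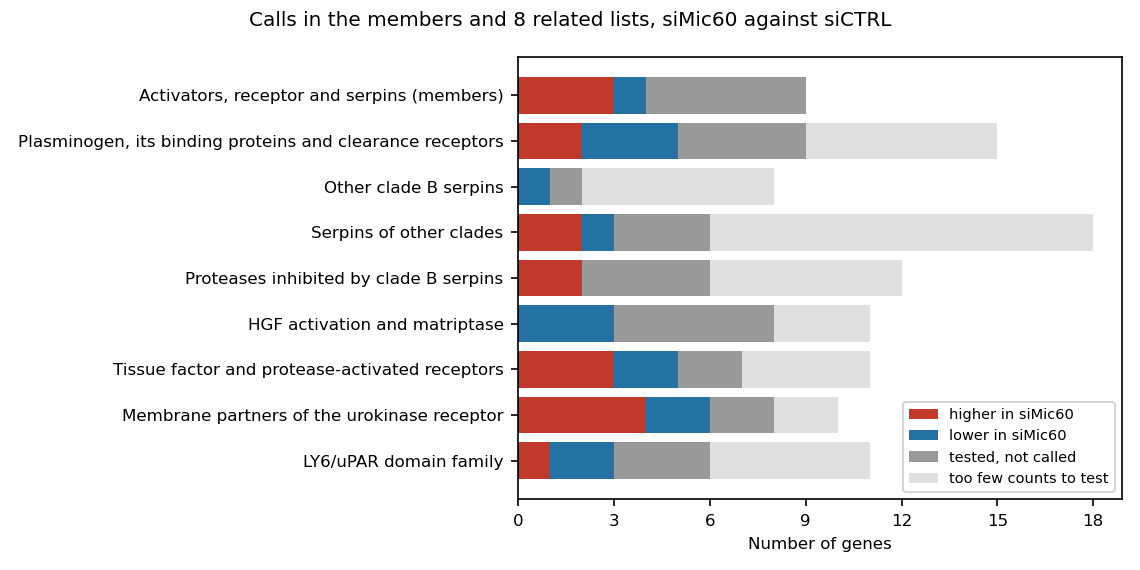
Number of genes (x axis) called higher (red), called lower (blue), tested without a call (dark grey) or with too few counts to test (light grey) in siMic60 against siCTRL, for the 9 members and 8 related lists. The members have 3 higher and 1 lower, the membrane partners of the urokinase receptor 4 higher and 2 lower, and the list of hepatocyte growth factor activation and matriptase 3 lower and none higher. Over all genes tested, 17.7% were called higher and 17.8% lower.

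PLAUR has no cytoplasmic part and signals through membrane partners. Of 8 tested partners, 4 rose and 2 fell, with a median log2 fold change of 0.48. Over all genes tested, 17.7% were called higher and 17.8% lower, and the median was 0.0026. The integrin chain ITGB1 was at 1029, 908 and 1031 CPM in siMic60 libraries and at 430, 460 and 465 CPM in siCTRL libraries, a rise of 2.19-fold (adjusted p = 1.42e-06). CAV1, the main caveolar protein, rose 2.05-fold and ITGA5, the fibronectin-binding partner of ITGB1, 1.84-fold. ITGB5, a chain of a vitronectin receptor, fell to a mean of 50.6 ± 9.38 CPM in siMic60, where siCTRL had 131 ± 19.2 CPM (SD, n = 3 each; adjusted p = 7.15e-06). Of the 6 tested genes that share the LY6/uPAR domain with PLAUR, LY6E, which interferon induces, rose 2.79-fold (adjusted p = 2.85e-07). LYPD3 fell to 55.0% and LYPD1 to 71.8% of control, and the call of LYPD1 was lost in 7 of 13 alternatives and that of LYPD3 in 1 of 13.

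Serpins outside clade B were mostly silent. Of 18 listed, 10 had no count in any library and 6 were tested. Of these 6, 2 were called higher and 1 lower, beside 17.7% and 17.8% over all genes. SERPINH1, a collagen chaperone of the endoplasmic reticulum that inhibits no protease, was at 79.1, 65.3 and 67.3 CPM in siMic60 libraries and at 30.7, 26.2 and 33.1 CPM in siCTRL libraries, a rise of 2.35-fold (adjusted p = 7.50e-06). SERPIND1, or heparin cofactor II, an inhibitor of thrombin, was at 30.7, 31.3 and 34.6 CPM in siMic60 libraries and at 89.8, 68.4 and 74.1 CPM in siCTRL libraries, and fell to 41.6% of control (adjusted p = 5.66e-06). SERPING1, the C1 inhibitor, is named after its value was seen and had 10, 37 and 23 counts in siMic60 libraries and 5, 1 and 3 counts in siCTRL libraries. It had enough counts to be tested only through the siMic60 libraries, where it is high, so its call carries no weight of its own. Neither SERPINF2, the main plasmin inhibitor of plasma, nor the neuronal PLAT inhibitor SERPINI1 was called (adjusted p = 0.304 and 0.101).

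In the list of tissue factor and protease-activated receptors, 3 of 7 tested genes were called higher, 2 lower and 2 were not called, beside 17.7% and 17.8% over all genes. TFPI2, a Kunitz-type inhibitor of plasmin and of the tissue factor complex, was at 703, 539 and 478 CPM in siMic60 libraries and at 117, 187 and 198 CPM in siCTRL libraries, a rise of 3.43-fold (95% confidence interval 2.60 to 4.51, adjusted p = 4.12e-06). The thrombin receptor F2R fell to 55.5% of control and the anticoagulant cofactor PROS1 to 49.9%, while GAS6, a ligand of TAM receptors, rose 2.26-fold. In the list of hepatocyte growth factor activation and matriptase, 3 of 8 tested genes were called lower, none higher and 5 were not called. SPINT1, which inhibits matriptase and the growth factor's activator, fell to 43.2% and the serine protease TMPRSS2 to 46.1% of control. The third, MST1, is named after its value was seen and had 4, 6 and 9 counts in siMic60 libraries and 33, 13 and 14 counts in siCTRL libraries. It reached the count minimum only through the siCTRL libraries, so that no rise could have been called.

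The proteases that clade B serpins inhibit were partly absent. GZMB, the target of SERPINB9, and CTSG, a target of SERPINB6, had no count in any library. FURIN, the target of SERPINB8, was at 25.5, 27.4 and 34.4 CPM in siMic60 libraries and at 31.1, 21.3 and 19.4 CPM in siCTRL libraries, with overlapping groups and no call (adjusted p = 0.254). Of the 6 tested proteases of this list, 2 were called higher and none lower, beside 17.7% and 17.8% over all genes. The 2 were CTSS, which encodes cathepsin S, and CASP1, which encodes the inflammatory caspase-1. Both are named after their values were seen, and both reached the count minimum through the siMic60 libraries, where they are high, so that a rise was the only call open to them. CTSS was at 10.9, 6.47 and 7.48 CPM in siMic60 libraries and at 0.60, 1.37 and 0.74 CPM in siCTRL libraries.

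The genes whose levels followed each called member most closely over the 6 libraries were taken by the smallest root mean square difference of centered log2 CPM. They were ADAMTS3 for PLAU (0.14), MAT2B for PLAT (0.020), C3AR1 for SERPINB2 (0.12) and PSMA2 for SERPINE2 (0.031), where the value in each parenthesis is that difference on the log2 scale. With 6 libraries in 2 groups, such likeness mainly reflects the difference between the groups.

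**Figure D5:**
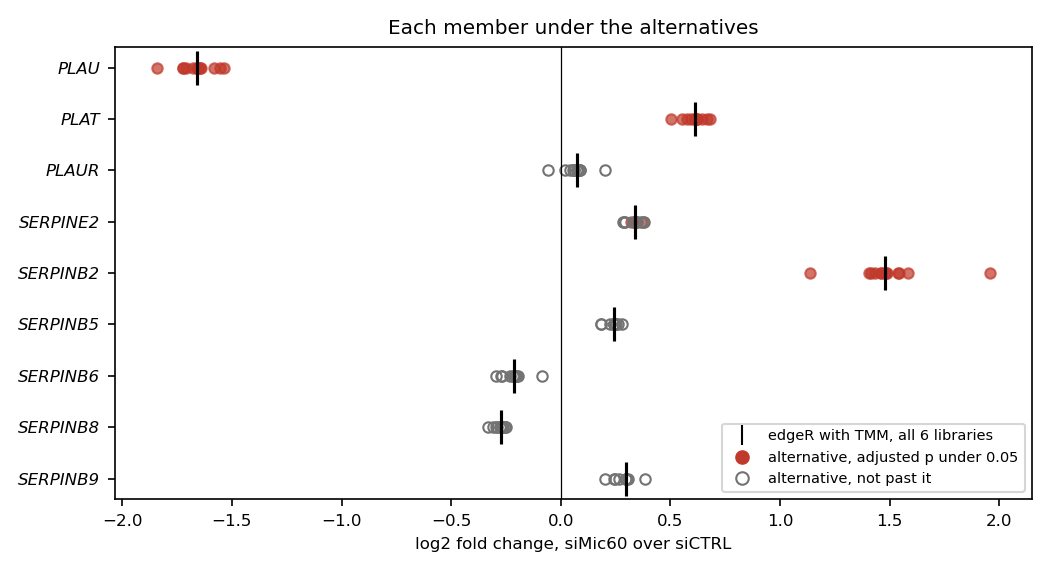
Log2 fold change of each member (x axis) with all 6 libraries and TMM scaling (black bar) and under up to 13 alternatives (points; filled red where the adjusted p was under 0.05, open where it was not). PLAU stays between −1.84 and −1.54, PLAT between 0.50 and 0.68 and SERPINB2 between 1.14 and 1.96 with all points filled, and SERPINE2 has points of both kinds.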

How the data were processed

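What the authors deposited was 1 table of unnormalized whole counts, by Ensembl gene, from 3 siMic60 and 3 siCTRL libraries. RSEM 1.2.3, DESeq2 and hg19 (GRCh37) are listed in the submitters' processing notes, without roles. RSEM estimates counts, so the values may have been rounded before deposit. Not given in the sources used here were aligner, annotation release, filters and strandedness, and reads of overlapping or near-identical genes cannot be told apart. Coordinates printed are those of RefSeq windows on GRCh38.p14, matched by gene symbol, and none come from the counts.

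The test was edgeR 4.0.16 under R 4.3.3 (TMM, library sizes from all counts, at least 10 counts in at least 3 libraries, quasi-likelihood test, Benjamini-Hochberg adjustment over 14653 genes, threshold 0.05), after the step was tested on simulated counts. The 95% confidence intervals were built from the standard errors of log2 fold changes. All 9 members matched an identifier through a table of current gene names. The members and lists were chosen with earlier results of these data known. In each list, up to 4 called genes of smallest adjusted p with a mean of at least 5 CPM are named, and for each called member the gene of most similar pattern (pseudocount 0.5 CPM). Alternatives were DESeq2 1.42.0, limma-trend (limma 3.58.1, prior count 2), 2 other scalings, 2 other count minimums, blocking on replicate number, and leaving out single libraries.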

Additional observations from a re-analysis of the deposited data

How the results depend on the processing

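PLAU, PLAT and SERPINB2 kept their direction and their call under all 13 alternatives, with fold changes of 0.279 to 0.345, 1.41 to 1.60 and 2.20 to 3.89. SERPINE2 kept its direction but lost its call in 8 of 13, and its adjusted p was 0.0862 with library totals, 0.0518 with no minimum count and 0.0604 with the replicate block. The log2 fold change of PLAUR, which was never called, was 0.07 with all libraries and ranged over −0.057 (without siMic60 replicate 1) to 0.20 (without siMic60 replicate 3) when single libraries were left out. Among members, 2 to 3 were called higher and 1 lower when single libraries were left out. SERPINB9 could be fitted in 9 of 13 alternatives, because its counts lay around the minimum. Over all genes, 5202 were called, 4765 with the replicate block and 4148 to 4634 without single libraries. Deviations from the group means of same-numbered libraries correlated at −0.10, −0.03 and 0.03 across genes. Only siMic60 replicate 3 correlated best with its own number. These values show no clear shared deviation by replicate number, but cannot tell whether same-numbered libraries were handled together. Genes with few counts, SERPINB9 above all, limit what could be detected at this depth.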

Other observations

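In siCTRL replicate 1, several members departed from the other controls, and not in a common direction relative to the silenced cells. PLAU was at 451 CPM there, against 686 and 709 CPM in the other 2 controls, which placed it nearer to the siMic60 libraries. PLAT (131 CPM), SERPINB2 (1.43 CPM) and SERPINB6 (98.9 CPM) lay on the far side of the controls instead. Without this library the log2 fold change of PLAU was −1.84 and that of SERPINB2 was 1.14, and both were still called. The source of the departure was not tested.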
